A study of Mus musculus with 13 samples.

Results

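The loci of 8 transcription factor genes of the pallium, Emx1, Emx2, Pax6, Tbr1, Eomes, Dmrta2, Bcl11a and Bcl11b, were described by their accessible regions. A region belonged to a locus when its strongest summit lay within 100 kb of the gene body (GENCODE M21, mm10). The 13 libraries held 1360329 regions, of which 1677, or 0.123%, were at these loci, with 84 to 164 per library.

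Accessibility was measured by ATAC-seq, in which the transposase Tn5 inserts sequencing adapters into open chromatin. The tissues were the forebrain (FB) and, from the forelimb, a proximal part (PFL) and a distal part (DFL), taken from E12.5 mouse embryos of the B6CBAF1 strain, and each library was made from 50000 cells. Both wild type (wt) and carriers of the II1TDOM 542 allele (542) were sampled in the 3 tissues with 2 replicates, and each replicate was a pool of several embryos. In the 542 allele, a single founder line, a distal limb enhancer (II1) with an HBB promoter and a LacZ reporter was inserted on chromosome 2 beside the HoxD cluster, and the study describes the embryos as homozygous. A further wt DFL library, an earlier one that the authors processed again, was kept out of the comparisons, which leaves 12 libraries in 6 groups. None of the 8 genes is a target of the modification, so the question the samples allow is how these loci differ between the tissues, and whether the genotypes differ there.

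The pallium is the dorsal part of the telencephalon and gives rise to the cerebral cortex. Its radial glial progenitors carry Pax6, Emx1, Emx2 and Dmrta2, its intermediate progenitors carry Eomes (also called Tbr2), and its young glutamatergic neurons carry Tbr1, while Bcl11a (Ctip1) and Bcl11b (Ctip2) act in postmitotic cortical neurons and in other lineages. Active promoters and enhancers are as a rule nucleosome-depleted and so accessible to Tn5, although an accessible region need not be active. A whole forebrain dissection holds subpallial cells too, and in such bulk samples a smaller share of cells with an open region and a weaker opening in each cell cannot be told apart.

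In every library the 50000 strongest regions were compared, ranked by the deposited −log10 q and then by fold, because the FB libraries were deeper. The depth estimated from the deposited values was 51.4 to 70.7 M tags (M, 1000000) in the 4 FB libraries and 37.5 to 54.5 M in the 8 limb libraries. Regions of the 12 libraries that overlapped were joined into 110788 consensus regions, 142 of them at the 8 loci. Each received a rank percentile per library, from 100 for the strongest region to 0 where the region was not in the list. The deposited fold is a ratio within a library of the tags under the summit to the local background, and the tags themselves could be recovered from it and are given per M tags of the library.

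Of 142 regions, 92 were listed in at least 1 FB library, 77 in at least 1 DFL library and 74 in at least 1 PFL library. The DNA of 9 of them is shown, 200 bases on the summit read from GRCm38.p6 on the plus strand, since these regions carry the tissue differences described further on. None of the 9 windows touches an annotated exon. Capitals mark the motifs searched on both strands, namely TAATTA (homeodomain core), CAGATG and CAGCTG (E-boxes, bound by proneural factors among others), AGGTGT (T-box) and ACAAAG (SOX). No marked match overlaps another. The first 2 windows come from FB regions of the Emx genes at chr6:85165698-85165897 and chr19:59467066-59467265, and the next from the limb region upstream of Emx2 at chr19:59423778-59423977. Those of Pax6 lie at chr2:105680589-105680788 in FB and chr2:105739017-105739216 in DFL. The FB windows of Tbr1, Dmrta2 and Bcl11a lie at chr2:61732887-61733086, chr4:109939405-109939604 and chr11:24095750-24095949. The Bcl11b window, at chr12:108006304-108006503, belongs to a region that was listed in all 12 libraries and ranked higher in FB.
Emx1 FB region: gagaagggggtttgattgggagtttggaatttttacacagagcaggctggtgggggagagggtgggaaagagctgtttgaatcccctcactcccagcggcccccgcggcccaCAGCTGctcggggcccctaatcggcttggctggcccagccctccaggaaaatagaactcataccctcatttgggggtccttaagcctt
Emx2 FB region: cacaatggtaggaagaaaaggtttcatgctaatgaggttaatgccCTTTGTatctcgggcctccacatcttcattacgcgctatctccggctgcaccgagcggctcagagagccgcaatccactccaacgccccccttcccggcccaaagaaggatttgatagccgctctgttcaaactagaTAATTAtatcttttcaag
Emx2 limb region: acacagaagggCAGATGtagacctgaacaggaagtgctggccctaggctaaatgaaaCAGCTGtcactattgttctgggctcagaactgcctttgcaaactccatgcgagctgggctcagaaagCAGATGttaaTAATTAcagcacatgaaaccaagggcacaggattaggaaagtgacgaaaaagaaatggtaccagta
Pax6 FB region: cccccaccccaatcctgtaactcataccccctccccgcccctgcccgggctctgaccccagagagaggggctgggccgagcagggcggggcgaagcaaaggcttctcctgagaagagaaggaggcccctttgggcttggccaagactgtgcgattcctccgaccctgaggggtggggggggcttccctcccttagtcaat
Pax6 DFL region: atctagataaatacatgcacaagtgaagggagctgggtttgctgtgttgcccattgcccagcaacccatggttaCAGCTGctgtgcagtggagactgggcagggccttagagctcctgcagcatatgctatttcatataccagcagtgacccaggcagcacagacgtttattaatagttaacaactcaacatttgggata
Tbr1 FB region: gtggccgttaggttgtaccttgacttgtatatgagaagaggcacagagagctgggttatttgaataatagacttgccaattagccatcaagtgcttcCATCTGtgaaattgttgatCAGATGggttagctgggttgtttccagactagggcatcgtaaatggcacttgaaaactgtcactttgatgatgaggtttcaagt
Dmrta2 FB region: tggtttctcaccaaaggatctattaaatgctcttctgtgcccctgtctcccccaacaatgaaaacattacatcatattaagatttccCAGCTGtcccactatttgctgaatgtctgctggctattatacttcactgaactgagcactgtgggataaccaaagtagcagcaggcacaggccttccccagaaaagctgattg
Bcl11a FB region: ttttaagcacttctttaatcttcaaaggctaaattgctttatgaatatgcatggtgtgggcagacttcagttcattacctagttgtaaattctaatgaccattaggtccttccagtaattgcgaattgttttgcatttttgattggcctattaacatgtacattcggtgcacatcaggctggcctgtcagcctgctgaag
Bcl11b shared region: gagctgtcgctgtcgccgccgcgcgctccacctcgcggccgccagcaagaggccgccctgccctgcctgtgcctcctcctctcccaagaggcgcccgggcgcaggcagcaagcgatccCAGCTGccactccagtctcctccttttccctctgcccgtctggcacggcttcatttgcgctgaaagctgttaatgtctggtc

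The Emx2 limb region held 4 matches, to the homeodomain core once and to the E-boxes at 3 places. The Tbr1 window held CAGATG at 2 places, in opposite orientations. The Pax6 FB window and the Bcl11a window held none of the 5 motifs. Their GC contents were 66% and 39%, so the windows also differed widely in base composition.

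At the level of whole loci, Emx1 and Emx2 had more accessible regions in FB than in limb, and Bcl11a had more in limb than in FB. The Emx1 locus had 14 and 13 regions in wt FB, 12 and 15 in 542 FB, and 4 to 8 in the limb libraries, so that the tissues did not overlap. Means were 13.5 ± 1.29 (SD, n = 4) in FB and 6.38 ± 1.598 (SD, n = 8) in limb, 2.12 times as many in FB. The Emx2 locus had 8 and 7 regions in wt FB, 10 and 12 in 542 FB and 3 to 7 in limb, meeting only at 7. Emx1 and Emx2 encode homeodomain paralogues that pattern the cortical field. Both differences passed the two-sided exact permutation test (adjusted p = 0.0272 and 0.0466). Across 21938 protein-coding genes, 9.49% were called with more regions in FB and 7.85% with more in limb, so 2 and 1 of 8 loci stand against those shares. The Emx1 difference of 7.13 regions ranked 180th of all genes. The Emx2 call was lost with all deposited regions (adjusted p = 0.0537), with a fold of at least 5 (0.134), when ranking by fold (0.430) and within 50 kb (0.0961, exact permutation tests).

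Bcl11a encodes a zinc-finger repressor that cortical neurons share with blood and immune cells. Its locus had 12 and 10 regions in wt FB, 12 and 12 in 542 FB and 13 to 18 in the 8 limb libraries, again without overlap, a difference of −3.13 (adjusted p = 0.0272, exact permutation test). This call was lost with all deposited regions (−5.5, adjusted p = 0.128), with a fold of at least 5 (−1.75, 0.2498), with a −log10 q of at least 10 (−0.75, 0.920), when ranking by fold (−3.5, 0.107) and as a share of deposited regions (adjusted p = 0.103, exact permutation tests). The direction depended on the window too. Within 50 kb the difference was −0.375, and within 20 kb of the gene it was 1.88 in favour of FB (adjusted p = 0.264, exact permutation test).

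**Figure D1:**
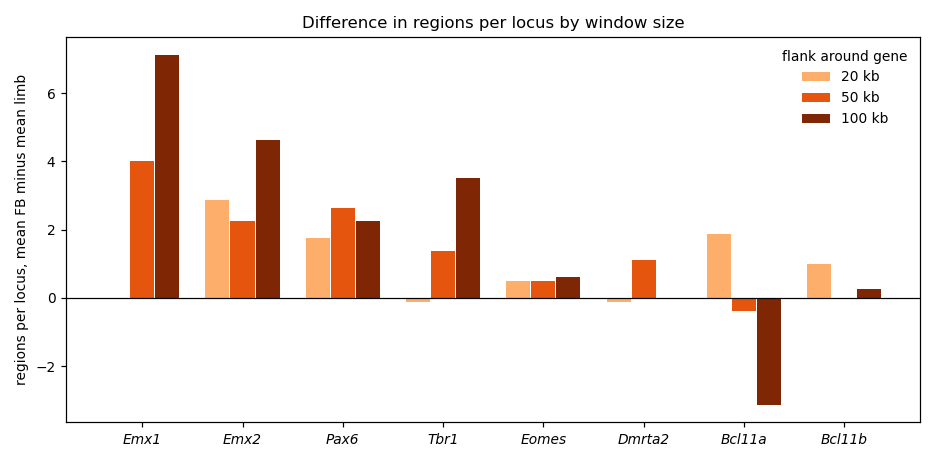
Difference in the mean number of regions per locus, FB (4 libraries) minus limb (8 libraries), for windows of 20, 50 and 100 kb around each gene body; bars start at 0. The bar of Bcl11a changes from 1.88 at 20 kb to −3.13 at 100 kb, and that of Emx1 grows from 0 to 7.13.

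Emx1 showed the reverse, with no difference within 20 kb, 4 more regions in FB within 50 kb (adjusted p = 0.0341, exact permutation test) and 7.13 more within 100 kb. Emx2 alone among the 8 was called within 20 kb, by 2.88 regions (adjusted p = 0.0417, exact permutation test). The remaining loci were not called. Tbr1, the T-box gene of early-born cortical neurons, had 10, 9, 8 and 7 regions in FB and 3 to 8 in limb (adjusted p = 0.0584, exact permutation test). The means in FB, DFL and PFL were 3.50, 2.50 and 3.25 for Eomes, 6.25, 6.50 and 6 for Dmrta2, and 8.5, 7.25 and 9.25 for Bcl11b.

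Pax6, the paired-domain gene of radial glia and the eye, depended on how many regions were taken. Among the 50000 strongest its locus had 10, 8, 12 and 10 regions in FB against 4 to 10 in limb (adjusted p = 0.315, exact permutation test). Among all deposited regions it had 27, 25, 30 and 27 in FB against 9 to 20 in limb, without overlap (adjusted p = 0.0343, exact permutation test). FB libraries were also the deeper ones, and the part of depth in this count was not tested. As a share of all deposited regions of the library, the Pax6 locus was higher in FB too (adjusted p = 0.0233, exact permutation test).

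Removing any 1 FB library left no gene and no region called, at these loci or in the whole series, because 3 FB against 8 limb libraries cannot give a p below 0.0121. The Emx2 call was also lost without any 1 of 7 of the 8 limb libraries, all but the second wt PFL library (adjusted p up to 0.0663, exact permutation test). Over all removals of 1 library the differences kept their direction, with 6.63 to 7.63 for Emx1, 3.71 to 5.38 for Emx2 and −3.36 to −2.63 for Bcl11a.

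**Figure D2:**
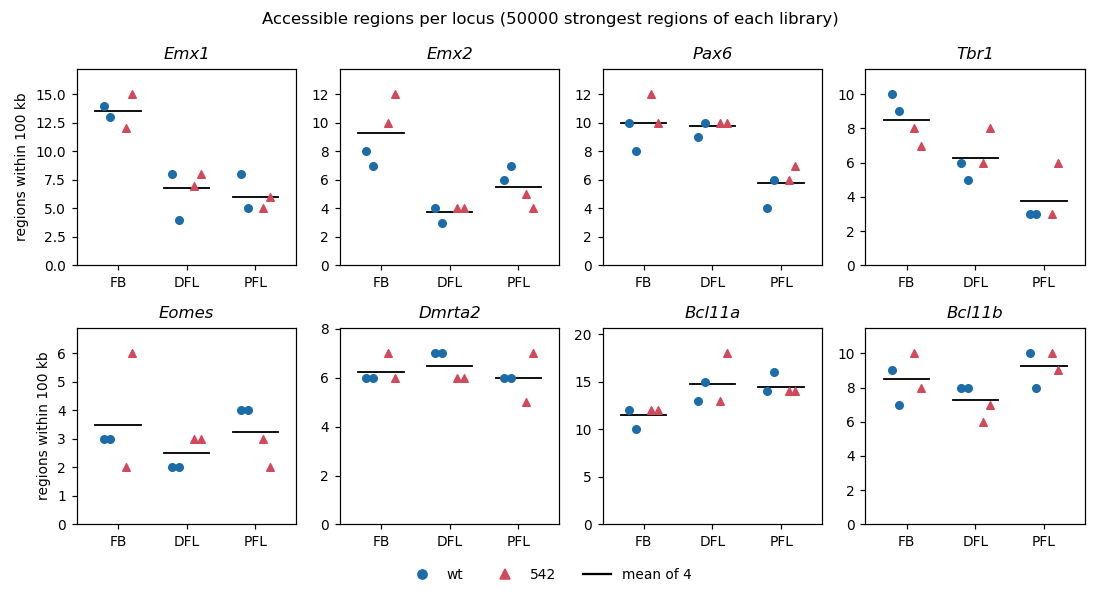
Number of regions among the 50000 strongest of each library within 100 kb of each gene, by tissue; circles are wt and triangles 542 libraries, and lines are means of 4. The 4 FB libraries of Emx1 (12 to 15) lie above all limb libraries (4 to 8), and those of Bcl11a (10 to 12) lie below them (13 to 18).

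Single regions showed which elements differed. Of the 142, 26 ranked higher in FB and 10 higher in limb (exact permutation test over 12 libraries, adjusted p below 0.05 over 110788 regions). These shares, 18.3% and 7.04%, compare with 14.5% and 8.05% of all consensus regions. By locus, 7 of 22 regions at Emx1 and 6 of 14 at Emx2 ranked higher in FB, and 2 of 35 at Bcl11a and 0 of 7 at Eomes. By presence alone, 15 regions (10.6%) were listed in all 4 FB and no limb libraries, where all consensus regions gave 8.76%. Another 6 (4.23%) were listed in all 8 limb and no FB libraries, against 4.81%. Such a listing by itself gives the smallest p of the permutation test. These 15 and 6 regions are therefore among the 26 and 10 called, and their calls add nothing to the listing. Regions in all 12 libraries were 23, or 16.2%, against 17.4%. These shares were near the background in each case.

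**Figure D3:**
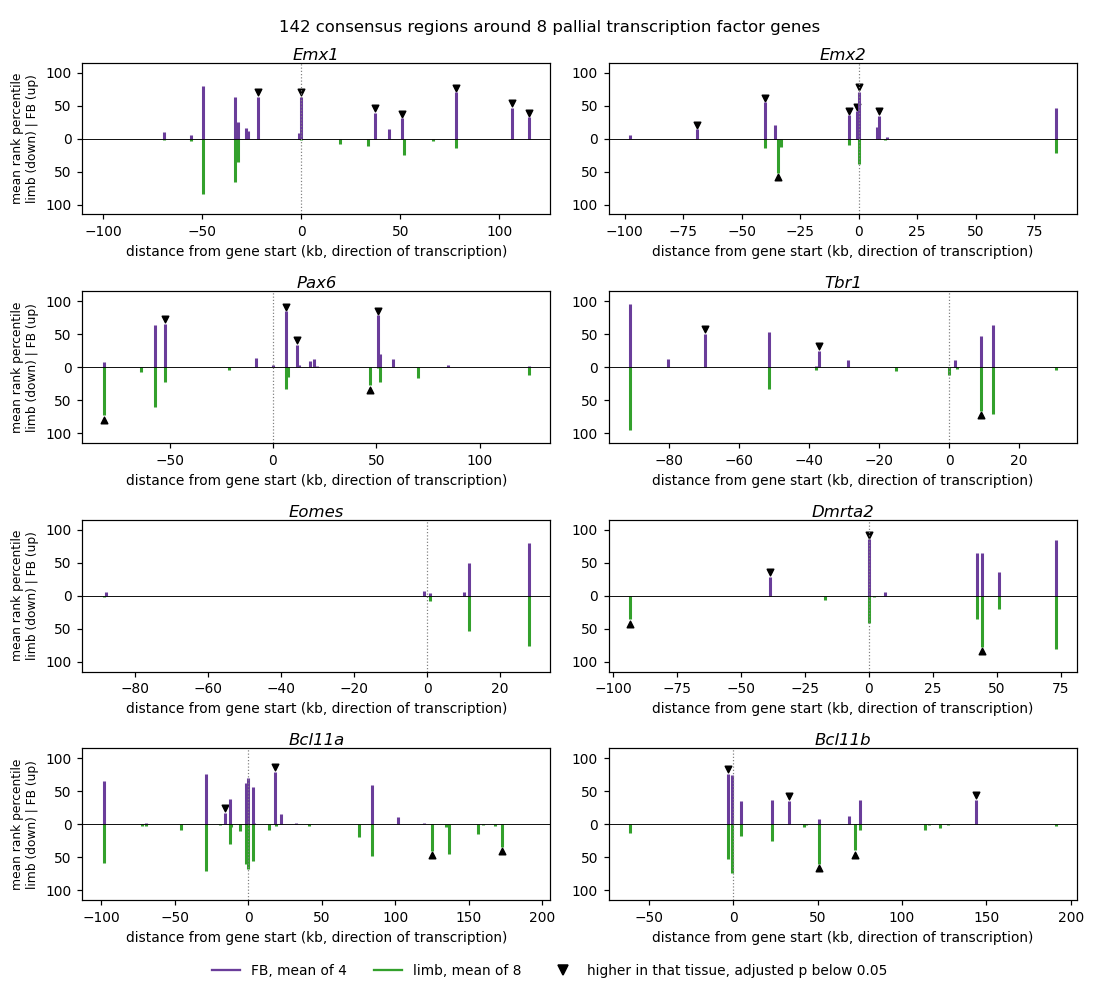
Mean rank percentile of the 142 consensus regions by distance from the gene's start in kb, in the direction of transcription, with FB (4 libraries) upward and limb (8 libraries) downward; triangles mark regions called at an adjusted p below 0.05. At Emx1 all 7 marked regions point to FB, and at Bcl11a the 2 limb marks lie 125 and 173 kb downstream of the start.

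The region over the start ranked higher in FB for Emx1, Emx2, Pax6 and Dmrta2 (adjusted p = 0.0193 each, exact permutation test, the smallest the design gives). For Tbr1, Eomes, Bcl11a and Bcl11b it was not called. Where a gene had several such regions, the one of highest mean rank was taken. Of all consensus regions, at starts and elsewhere, 14.5% ranked higher in FB. The share over the starts of all genes was not computed.

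The Emx1 start (chr6:85187057-85188294, first exon) had folds of 8.18 and 7.47 in wt FB and 6.73 and 8.01 in 542 FB. In limb they ranged from 2.69 to 4.92, below every FB value. In tags per M the start reached 2.08 ± 0.358 in FB, 0.640 ± 0.168 in DFL and 0.596 ± 0.185 in PFL (SD, n = 4 each). It was among the 50000 strongest regions of all 4 FB but of only 2 of 8 limb libraries. With the 20000 strongest regions its call was lost (adjusted p = 0.382, exact permutation test).

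Dmrta2, a zinc-finger gene that acts upstream of cortical patterning, had the highest-ranking start of the 8 in FB. Its region (chr4:109977426-109978601, shared with the start of the antisense gene Dmrta2os) had folds of 9.48, 8.94, 9.67 and 8.77 in FB, 4.50 to 6.19 in DFL and 3.65 to 4.64 in PFL. FB did not overlap either limb tissue. In tags per M the means were 5.77 ± 0.406 in FB, 1.87 ± 0.349 in DFL and 1.30 ± 0.0863 in PFL (SD, n = 4 each). The mean number of regions at this locus was 6.25 in both FB and limb.

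At Emx2 the start (chr19:59457953-59459669) overlaps that of the antisense gene Emx2os and was open in all 12 libraries. Its folds were 8.41, 6.70, 6.60 and 8.88 in FB, 4.11 to 6.55 in DFL and 4.72 to 6.80 in PFL, so that FB and PFL overlapped. The rank percentiles were 70.5 ± 7.33 (SD, n = 4) in FB and 37.9 ± 17.6 (SD, n = 8) in limb. When regions were ranked by fold in place of −log10 q this call was lost (adjusted p = 0.110, exact permutation test).

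Pax6 has several alternative starts, and they did not behave alike. The first annotated start was listed in only 1 of 12 libraries. The strongest start lay 6.46 kb inside the gene (chr2:105675027-105675800, exonic), with folds of 8.32, 9.23, 8.32 and 7.64 in FB, 5.01 to 7.22 in DFL and 2.64 to 4.29 in PFL. The 3 tissues did not overlap. In tags per M they followed the same order, 5.69 ± 0.0647 in FB, 1.76 ± 0.361 in DFL and 0.795 ± 0.174 in PFL (SD, n = 4 each). Ranking by fold lost the FB call here as well (adjusted p = 0.0562, exact permutation test). A second region over a start, 7.34 kb inside the gene, was listed in 6 of 8 limb and 0 of 4 FB libraries, although its difference was not called (adjusted p = 0.170, exact permutation test).

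The first Tbr1 start was weak in FB. Its region (chr2:61802683-61803336) had folds of 2.62, 3.39, 2.12 and 2.80 in FB, 3.88 to 5.54 in DFL and 2.77 to 4.70 in PFL. It was listed in 1 of 4 FB and 4 of 8 limb libraries, and its rank did not differ by the test (adjusted p = 0.515, exact permutation test). In tags per M the 3 tissues were close, with 0.807 ± 0.186 in FB, 0.934 ± 0.122 in DFL and 0.714 ± 0.152 in PFL (SD, n = 4 each). A region over an internal start 1.51 kb inside the gene (chr2:61804126-61804805) had folds of 3.67, 3.54, 4.24 and 2.81 in FB and was deposited in no limb library. It was listed in 3 of 4 FB libraries and was not called (adjusted p = 0.114, exact permutation test). A fold divides by the local background, which is why folds and tags need not give the same order.

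The Eomes start was as weak, with folds of 3.23 to 4.29 in FB and 3.20 to 6.76 in limb. The starts of Bcl11a and Bcl11b were open in all 12 libraries. Mean folds at Bcl11b were 7.85 ± 0.896 in FB, 8.00 ± 0.880 in DFL and 7.57 ± 0.755 in PFL (SD, n = 4 each). Its rank percentiles in FB and limb were 74.5 and 73.5 (adjusted p = 0.910, exact permutation test). At Bcl11a the start had a mean rank percentile of 69.7 in FB and 68.1 in limb.

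**Figure D4:**
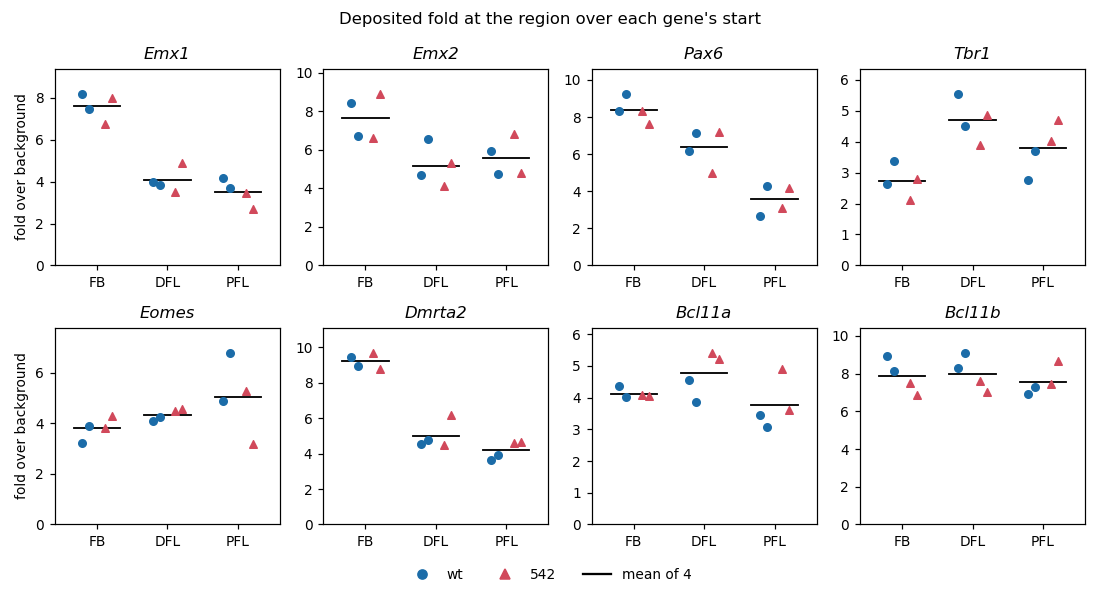
Deposited fold over the local background at the region over each gene's start, by tissue, with circles for wt and triangles for 542 libraries and lines for means of 4; each axis starts at 0. FB is highest at Emx1, Pax6 and Dmrta2 without overlap, while at Tbr1 the FB mean of 2.73 is below the DFL mean of 4.69.

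Of the 26 regions that ranked higher in FB, 4 lay over a start of the 8 genes and 16 had their summit in an intron, and of the 106 regions not called these were 9 and 48. At Emx1, 5 regions were listed in all FB and no limb libraries. One of them, intergenic and 21.6 kb upstream (chr6:85165249-85166178, its sequence above), had folds of 9.83, 7.99, 8.69 and 9.90 in FB. None of the 8 limb libraries had a deposited region there, which means that it stayed under the caller's q threshold, not that it had no tags, and the further wt DFL library, the deepest, had one at a fold of 3.43. With the 20000 strongest regions its call was lost (adjusted p = 0.116, exact permutation test). The other 4 lay downstream of Emx1 in introns of Sfxn5, a mitochondrial carrier gene. The strongest of these, 107 kb from the Emx1 start (chr6:85293449-85294463), had folds of 7.21, 8.29, 7.36 and 8.25 in FB, and a weaker deposited region in 3 DFL libraries (3.22 to 3.59).

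The Emx1 locus also held the start of Spr, an enzyme gene of tetrahydrobiopterin synthesis used in many tissues. That region had folds of 11.6 to 13.3 in FB and 10.3 to 14.8 in limb and was the highest-ranking of the locus in both tissues. It was not called (adjusted p = 0.102, exact permutation test).

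At Emx2 distal elements differed in opposite directions, which was also the case at Pax6, Dmrta2, Bcl11a and Bcl11b. In FB, regions that ranked higher lay over the start, 0.869 and 3.98 kb upstream in Emx2os, 8.79 kb downstream, and 40.1 and 69.0 kb upstream. The call at 69.0 kb was lost with a fold of at least 5 (adjusted p = 0.114, exact permutation test). A region that was open in limb lay between the upstream ones at 40.1 and 3.98 kb (chr19:59423456-59424373, intergenic, 34.5 kb upstream). Its folds were 6.51, 7.88, 7.74 and 8.87 in DFL and 7.24, 6.67, 6.68 and 8.47 in PFL. In FB it was outside the 50000 strongest in every library, with deposited folds of 3.26 to 3.74 in 3 of them. In tags per M it reached 1.02 ± 0.0841 in DFL and 1.39 ± 0.0811 in PFL (SD, n = 4 each), and these did not overlap. The folds did overlap and had the other order, with means of 7.75 in DFL and 7.27 in PFL. A difference between DFL and PFL was not tested for single regions. With the 20000 strongest regions the limb call of this region was lost. A neighbouring region 33.3 kb upstream (chr19:59424890-59425709) was listed in all 4 PFL libraries, with folds of 4.53 to 5.54, and in no DFL or FB list, although 2 DFL libraries had a deposited region there (4.30 and 5.08).

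At Pax6 the limb region of highest rank (chr2:105586283-105587341) lay in an intron of the antisense gene Pax6os1, 81.9 kb upstream of the start. Its folds were 10.1 to 15.3 in DFL, 10.1 to 11.3 in PFL and 4.67, 3.26, 3.42 and 7.08 in FB, without overlap between limb and FB. Inside the gene, an intronic region 11.8 kb from the start (chr2:105680402-105680959) was listed in all FB and no limb libraries, with folds of 3.22, 4.28, 4.08 and 4.90. Ranking by fold removed that call (adjusted p = 0.922, exact permutation test).

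Downstream of Pax6 lies Elp4, an Elongator subunit gene whose introns are known to hold long-range Pax6 enhancers. In those introns 1 region ranked higher in FB, 51.1 kb from the Pax6 start, with a mean rank percentile of 78.4 in FB and 1.97 in limb. A region 4.04 kb before it (chr2:105715264-105716307) was listed in all 8 limb libraries at folds of 4.08 to 6.36, with no deposited region in FB. Joining summits within 150 bp in place of overlapping regions removed the latter call (adjusted p = 1, exact permutation test). A fold of at least 5 (adjusted p = 0.1695) and ranking by fold (0.1796, exact permutation tests) also removed it. Another region, 70.2 kb from the start (chr2:105738780-105740349), was found in DFL alone among the 12 libraries. It had folds of 6.89, 7.58, 5.71 and 5.76, and the lists of PFL and FB held nothing there at any strength. The further wt DFL library also had it, at a fold of 8.70.

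At Tbr1, 2 regions were listed in all FB and no limb libraries, both upstream of the gene in introns of Psmd14, which encodes a proteasome subunit. The one 69.9 kb upstream (chr2:61732783-61733436) had folds of 11.4, 9.79, 8.36 and 8.00 in FB. The other, 37.2 kb upstream (chr2:61765410-61766104), had 7.36, 7.16, 6.33 and 4.94, and neither had a deposited region in limb. One region in the body of the gene ranked higher in limb, in an exon 9.15 kb from the start, with mean rank percentiles of 47.3 in FB, 67.7 in DFL and 64.1 in PFL. The start of Psmd14 was open throughout, at mean folds of 21.4 in FB and 18.6 in limb.

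At Dmrta2, the FB element away from the start lay 38.5 kb upstream in an intron of Faf1 (chr4:109939021-109939841), with folds of 7.01, 8.23, 5.32 and 6.92. A region in the same gene 93.5 kb upstream (chr4:109884337-109885107) was listed in limb alone, with a mean fold of 6.89 ± 1.25 (SD, n = 8) against 3.11 ± 0.604 (SD, n = 4) in FB. With the further wt DFL library included in the test that call was lost (adjusted p = 0.0555, exact permutation test). A fold of at least 5 (adjusted p = 0.0760) and joining summits within 150 bp (0.0896, exact permutation tests) also removed it. So did the list of the 20000 strongest regions. Eomes had 7 regions and none was called. Its highest-ranking one, in both tissues, was the start of Golga4, a Golgi protein gene, 28.0 kb downstream.

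The FB-only element with the highest rank percentile of all 8 loci was at Bcl11a, the locus with fewer regions in FB. It lay in an intron 17.8 kb downstream of the start (chr11:24095146-24096514), with folds of 8.88, 7.48, 8.75 and 7.97 in FB. Its rank percentile in FB, 79.6 ± 1.596 (SD, n = 4), was above that of the Bcl11a start. By mean fold in FB, 8.27, it stood below the FB-only regions 69.9 kb upstream of Tbr1 (9.39) and 21.6 kb upstream of Emx1 (9.10). The Bcl11a region was in no limb list, and 1 of 8 limb libraries had a deposited region there, at a fold of 2.57. In limb, the regions called at this locus were distal, 125 kb (chr11:24202605-24203652) and 173 kb downstream of the start, beyond the gene's end. The call at 125 kb was lost with the 20000 strongest regions. A region 75.2 kb inside the gene (chr11:24152882-24153443) was listed in all 4 PFL libraries, at folds of 8.12, 5.25, 9.81 and 4.39, and in no DFL or FB list, with 1 deposited region in FB at 3.12.

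Bcl11b, a zinc-finger gene of deep-layer projection neurons, striatal neurons and T cells, had a start that was not called and an element beside it that was. A region 2.80 kb upstream of the start (chr12:108006097-108006639) had folds of 8.73, 8.74, 7.90 and 7.81 in FB, 5.32 to 5.997 in DFL and 4.52 to 5.45 in PFL, without overlap of FB and limb. In tags per M it reached 3.33 ± 0.0756 in FB, 1.88 ± 0.175 in DFL and 1.53 ± 0.180 in PFL (SD, n = 4 each). FB-only regions lay 33.3 kb inside the gene (chr12:107969761-107971046) and 144 kb downstream of the start (chr12:107859080-107860241). The call at 33.3 kb was lost with a fold of at least 5 (adjusted p = 0.114, exact permutation test). A limb-only region lay 72.4 kb inside the gene (chr12:107930844-107931476), with folds of 4.25 to 5.63 in DFL and 5.14 to 7.79 in PFL. Its call was lost with a fold of at least 5 (adjusted p = 0.1695) and when ranking by fold (0.0808, exact permutation tests). The 20000 strongest regions lost it too.

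**Figure D5:**
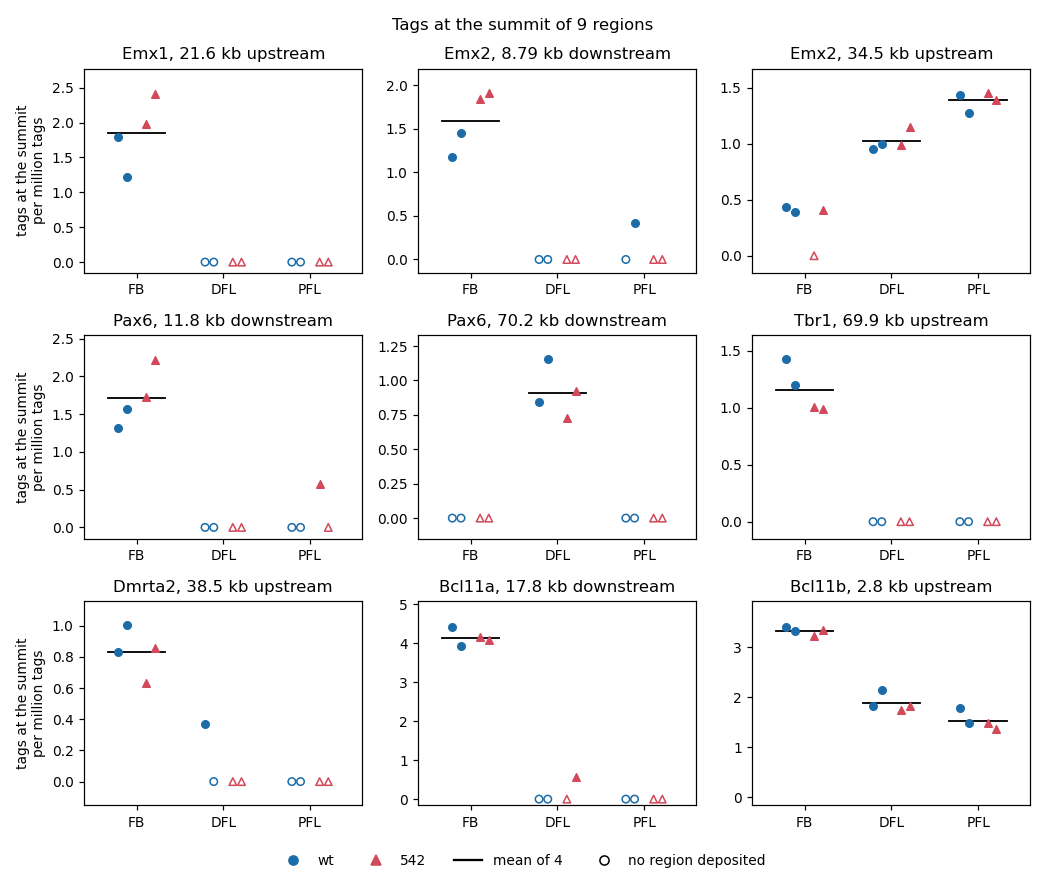
Tags at the summit per M (1000000) tags of the library for the 9 regions whose sequences are shown, by tissue, with circles for wt and triangles for 542; open symbols at 0 mark libraries with no deposited region, whose tag number is not known to be 0. The Bcl11a region reaches 4.15 in FB, and the Pax6 region 70.2 kb downstream has filled symbols only in DFL.

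The absence of a region from a list of 50000 does not make the site closed. Of the 15 regions listed in FB alone, 10 had a weaker deposited region in at least 1 limb library and 5 had none, 3 of these at Emx1 and 2 at Tbr1. Of the 6 listed in limb alone, 4 had a deposited region in at least 1 FB library. In the 20 kb just inside the 100 kb limit there were 15 consensus regions, 2 called higher in FB and 2 in limb, and in the 20 kb just outside there were 14, with 4 and 1.

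TAATTA stood in the summit windows of 7 of the 26 FB-higher regions (26.9%), 1 of the 10 limb-higher regions and 11 of the 106 others (10.4%). The share was 9.93% over all 110788 consensus regions, and 20.5% over all those higher in FB. CAGATG was in 4 of the 26 (15.4%, against 21.0% of all regions), CAGCTG in 4 (15.4%, against 20.7%), AGGTGT in 1 (3.85%, against 9.73%) and ACAAAG in 1 (3.85%, against 17.1%). ACAAAG was found in 24% of all regions higher in FB. The median GC content of the 26 windows was 56.5%. It was 48.5% over all regions and also 48.5% over all those higher in FB. The part of base composition in the motif shares was not tested.

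Between the limb tissues, no locus was called. Pax6 had the largest difference of the 8, with 9, 10, 10 and 10 regions in DFL and 4, 6, 6 and 7 in PFL, which did not overlap. The exact permutation test gave p = 0.0286, the smallest that 4 against 4 libraries allow, and an adjusted p of 0.484. Of all genes, 0% were called with more regions in DFL and 0% with more in PFL, although 611 and 683 had an unadjusted p under 0.05. By presence, 2 of the 142 regions (1.41%) were listed in all DFL and no PFL libraries, at Emx1 and Pax6, and 2.53% of all consensus regions were. Listed in all PFL and no DFL libraries were 4 (2.82%), 2 of them at Bcl11a and 1 each at Emx2 and Bcl11b, against 2.03% of all.

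Between the genotypes, no locus was called either, nor any gene, with 0% more in 542 and 0% more in wt, and 462 and 354 genes at an unadjusted p under 0.05. Differences between 542 and wt, averaged over the tissues, ran from −0.167 regions at Dmrta2 to 1.33 at Pax6 (p = 0.111, adjusted p = 1, permutation within tissues). These directions depended on the settings, with 38 changes of sign among 192 values at 7 loci. At Pax6 the mean was 18.3 in 542 and 19.7 in wt among all deposited regions, and 5.33 in both with a fold of at least 5. In FB, 3 of the 142 regions (2.11%) were listed in both wt and no 542 libraries, against 1.66% of all consensus regions, and 5 (3.52%) in both 542 and no wt libraries, against 1.57%. The Tbr1 region 29.1 kb upstream (chr2:61773480-61774325), listed in wt, had folds of 6.42 and 5.80 in wt FB, and of 4.69 and 4.35 in 542 FB, where it was deposited as well. The Emx2 region 7.80 kb downstream (chr19:59465937-59466478), listed in 542, had folds of 3.37 and 4.55 in 542 FB and of 2.79 and 3.02 in wt FB. Tags per library were fewer in 542 than in wt, 45.5 against 54.5 M on average, and their part in these counts was not tested.

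Other forebrain genes were read in the same way. Of 30 further genes of the pallium and cortex, 13 had more regions in FB and 0 had more in limb, with a median difference of 3.31 against 0 over all genes. They included Otx1 (10 regions in FB, 2 in DFL and 2 in PFL on average), Nr2f1, which patterns cortical areas (14.8, 6.75 and 4.75), and Neurog2, a proneural gene (12.8, 8.25 and 5.25). Of 13 subpallial genes 5 had more in FB and 0 in limb, among them Olig2 (13, 3 and 1.75) and Nkx2-1 (9.75, 4.75 and 4). The windows of neighbours such as Dlx1 and Dlx2 share regions, so that these counts are not independent. The median difference of the 8 loci described here was 1.44.

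Between FB and limb, marker loci followed the tissue labels for the most part. More regions in FB were found at the forebrain marker loci Sox1, Sox2 and Sox3, while Six3 and Lhx2 were not called (adjusted p = 0.968 and 0.0794, exact permutation test). More in limb were found at 4 of 6 limb mesenchyme loci and at both distal limb loci, Hoxa13 and Hoxd13. Proximal limb loci were divided, since Meis1 and Meis2, which the forebrain uses too, had more regions in FB and Shox2 had more in limb. The counts at these distal and proximal loci did not separate DFL from PFL. DFL minus PFL was 0.25 regions at Hoxa13 and 2.5 at Hoxd13 (unadjusted p = 0.0857 for Hoxd13, exact permutation test). It was −0.5 at Meis1, 0 at Meis2 and −0.5 at Shox2, with no unadjusted p under 0.05 (exact permutation test). Other cell types gave single calls, namely Myf5 of 3 muscle loci and Kdr of 3 endothelial loci toward limb, and Gata1 of 3 blood loci and Krt5 of 3 ectoderm loci toward FB. Summed over their lists, the blood loci had 43 to 49 regions in FB and 35 to 39 in limb, and the muscle loci 15 to 17 in FB, 12 to 15 in DFL and 21 to 25 in PFL, so that DFL and PFL did not overlap. Pax3 and Myod1 each had more regions in PFL than in DFL at an unadjusted p of 0.0286 (exact permutation test), and neither passed the adjustment. The part of such cells in the values of Pax6, Bcl11a, Bcl11b and the PFL-only regions was not tested.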

How the data were processed

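Peak lists of 13 ATAC-seq libraries were used, 12 in 6 groups of 2 and the further wt DFL library only as an alternative. Per the methods and the labels, the authors trimmed reads with cutadapt, mapped them with Bowtie2, wt to mm10 and 542 to a genome holding the insertion, removed duplicates with Picard, converted them with bedtools and called regions per library with MACS2 without a control. The deposited values are a fold (ratio) over the local background, a −log10 p-value, a −log10 q-value, a score and the summit offset. Positions on chromosome 2 beyond the insertion were shifted back in 542. Regions were joined where they overlapped by at least 1 base. Tags were recovered from the deposited fold and −log10 p-value for 94.3 to 98.8% of regions, and depth was estimated from the background, which limits the precision of tags per M (1000000).

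Counts of regions per gene and rank percentiles were compared by two-sided exact permutation tests over libraries, with labels exchanged among all libraries for the tissues and within each tissue for the genotypes, and adjusted by Benjamini-Hochberg over 21938 genes or 110788 regions (Python 3.11.15, numpy 2.4.6, scipy 1.17.1, pandas 2.3.3, matplotlib 3.10.9). The smallest possible p was 0.00404 for FB against limb, 0.0286 for DFL against PFL and 0.00926 for the genotypes. Replicates were pools of embryos. Statistics were tested on simulated data. The members and lists were chosen with earlier results of these data known. Regions were named by a rule: those over a start, of highest rank in FB or limb, or listed in 1 tissue or genotype alone. Other called regions, and the Pax6 starts, were named after their values were seen. Alternatives were the list length, thresholds, ranking, joining, window, a replicate block, the further library and leaving out each library. One gene of these lists is not reported here by name.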

Additional observations from a re-analysis of the deposited data

Results flagged for a closer look

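Within a group of 4 libraries, a sample far from the others was sought in 24 sets of region counts and 81 sets of folds, and chance alone flags about 1 in 20 sets of continuous values. That rate does not hold for the counts, where 3 equal values make any other value stand apart. In region counts the wt DFL replicate 2 had 3 regions at Emx2 where the others had 4, wt DFL replicate 1 had 9 at Pax6 where the others had 10, 542 PFL replicate 2 had 6 at Tbr1 where the others had 3, and 542 FB replicate 1 had 7 at Dmrta2 where the others had 6. At Bcl11a, wt FB replicate 2 had 10 where the others had 12, and wt PFL replicate 2 had 16 where the others had 14. In folds, wt DFL replicate 2 had 17.6 at the Psmd14 start near Tbr1 (others 19.1 to 19.3), 542 DFL replicate 2 had 6.19 at the Dmrta2 start (others 4.50 to 4.78), and wt FB replicate 1 had 4.37 at the Bcl11a start (others 4.03 to 4.07).

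In some pairs of tissues the genotypes differed in opposite directions in every library, and the difference between the tissues was not tested. At Emx2, 542 had 3.5 more regions than wt in FB and −2 in PFL, 5.5 apart. At Eomes, 542 minus wt was 1 in DFL and −1.5 in PFL, 2.5 apart. Both patterns depended on the length of the list, since among all deposited regions the Emx2 means in FB were 17 in 542 and 17.5 in wt, and the Eomes means in DFL were 5.5 and 8.5. The fold at the Bcl11b start was lower in 542 by −1.38 in FB and −1.36 in DFL, and higher by 0.957 in PFL, differences of −2.34 and −2.32.

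The further wt DFL library had 9 regions at Bcl11b, where the 4 DFL libraries had 8, 8, 6 and 7.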

How the results depend on the processing

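Of 8 loci, 3 were called between FB and limb. This became 0 with the 20000 strongest regions, 1 with a fold of at least 5, 1 when ranking by fold, 1 with a window of 50 kb, 1 with 20 kb, 5 with a −log10 q of at least 10 and 5 as a share of all deposited regions (in both cases Emx1, Emx2, Pax6, Tbr1 and Eomes, without Bcl11a), and 0 to 3 without 1 library. Calls over all 21938 genes changed as well, from 3804 to 4035 with a −log10 q of at least 10 and 5628 as a share. They were 2125 to 2764 with the 20000 strongest regions, the fold threshold, ranking by fold and the smaller windows. The 50000th region had a −log10 q of 11.9 to 17.2 in FB and 7.27 to 13.2 in limb. A threshold of 10 therefore did not give lists of equal length. Bcl11a changed sign with the 20000 strongest regions (1.13) and within 20 kb (1.88). Regions higher in FB, 26, became 54 with all deposited regions, 8 with the 20000 strongest, 12 within 20 kb, and 0 to 27 without 1 library. Regions higher in limb, 10, became 16, 2 and 4 under those settings, 5 with a fold of at least 5, and 0 to 11 without 1 library. Over all consensus regions, 24939 of 110788 were called in either direction. This became 47487 of 264483 with all deposited regions and 8094 of 37911 with the 20000 strongest. FB-only regions, 15, became 24, 5 and 5 with all deposited, the 20000 strongest and 20 kb. Limb-only regions, 6, became 1 with the 20000 strongest, 3 with a fold of at least 5 and 2 within 20 kb. DFL-only regions, 2, became 8 with all deposited, 1 with the 20000 strongest, 5 with a fold of at least 5, 1 with joined summits, 1 within 50 kb, 0 within 20 kb and 2 to 5 without 1 library. PFL-only regions, 4, became 0 with the 20000 strongest, 1 with a fold of at least 5, 0 with a −log10 q of at least 10 and 1 within 20 kb. Regions in wt alone in FB, 3, became 1 with a −log10 q of at least 10, 0 within 20 kb and 3 to 7 without 1 library. Those in 542 alone, 5, became 0 with the 20000 strongest, 2 with a fold of at least 5, 3 with a −log10 q of at least 10, 2 when ranking by fold, 3 within 50 kb, 3 within 20 kb and 5 to 13 without 1 library. The cause of these changes was not tested, except that without 1 FB library the smallest p is 0.0121.

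In the 19289 regions listed in all 12 libraries, replicate numbers showed no pairing of samples, with 15 correlations from −0.0562 to 0.0166. Regions absent from some lists were not covered, so pairing in them was not tested. With a replicate block 0 loci and 0 regions in either direction were called, since the smallest p is then 0.0247 (smallest adjusted p 0.119 for genes and 0.103 for regions, permutation test). For named regions, 442 values under other settings gave 46 lost calls and 8 gained, and 515 without 1 library gave 92 lost and 1 gained.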
